A study of Homo sapiens with 2 samples.

Results

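The miRNAs described are both arms of the miR-149 hairpin, hsa-miR-149-5p (MIMAT0000450) and hsa-miR-149-3p (MIMAT0004609), and hsa-miR-8078 (MIMAT0031005), which are 3 of the 2565 human miRNAs on the array. They were taken by name from the array tables. MiR-149-5p and miR-8078 were chosen by their measured signals, which were lower on the luteolin array than on the control array, so the differences below are a description and not a test. MiR-149-3p was added as the other arm of the same hairpin. Total RNA came from 22Rv1, a line of human prostate carcinoma cells with an active androgen receptor, grown in RPMI1640 medium. One culture was given 25 µM luteolin, a plant flavone, and the other was not treated, with RNA taken after 48 h in both cases. A single-colour Toray 3D-Gene array with 250 ng of Cy5-labelled RNA was run once for each condition, and without replicates the conditions could not be tested against each other.

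A miRNA is cut from 1 side of a hairpin precursor, and bases 2 to 8 of the mature strand, the seed, do most of the pairing with target mRNAs. MIR149 is known as an intronic miRNA gene of GPC1, which encodes the heparan sulfate proteoglycan glypican-1. Its 5p arm has been described as tumour-suppressive in several carcinomas, and FOXM1, a driver of the cell cycle, is among its reported targets. The 3p arm has been reported to act on AKT1 and E2F1 mRNA in neuroblastoma cells and on GSK3A in melanoma cells. MiR-8078 is a catalogue entry numbered near miR-8080.

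The mature sequences are shown because the array tells miRNAs apart by sequence alone, and the seed is in capitals (5′ to 3′, RefSeq, GRCh38.p14).
miR-149-5p: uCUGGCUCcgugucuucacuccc
miR-149-3p: aGGGAGGGacgggggcugugc
miR-8078: gGUCUAGGcccggugagagacuc
The 3 seeds differ from each other. The 5p arm of miR-149 has 23 bases, of which 60.9% are G or C, miR-149-3p has 21 bases with 76.2% and miR-8078 has 23 bases with 65.2%.

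The hairpins are shown with the mature strands in capitals, to place each strand in its precursor.
MIR149: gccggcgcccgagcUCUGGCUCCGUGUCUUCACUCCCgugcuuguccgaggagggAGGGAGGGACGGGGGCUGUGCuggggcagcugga
MIR8078: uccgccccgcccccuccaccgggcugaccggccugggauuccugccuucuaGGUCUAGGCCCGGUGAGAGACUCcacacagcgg
MIR149 lies at chr2:240456001-240456089 on the plus strand, inside the span of GPC1 (240435663 to 240468076, plus strand) and of the antisense lncRNA GPC1-AS1 (240449379 to 240456700, minus strand). MIR8078 lies at chr18:112256-112339 on the minus strand, inside the spans of the transcribed pseudogene ROCK1P1 and of the lncRNA LOC112268408. The reference table used gives gene spans and no exons. It held no other miRNA gene within 10 kb of either hairpin.

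RNAfold placed the MIR149 hairpin at -62.9 kcal/mol per 100 bases, rank 173 of 1562 hairpins counted from the most stable. In that fold 15 of the 23 bases of miR-149-5p pair with miR-149-3p, so the arms face each other across a stem. The MIR8078 hairpin stood at -45.5 kcal/mol per 100 bases, close to the median of -45.2, and 16 of the 23 bases of miR-8078 were paired.

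A level below is the authors' normalized intensity, made by subtracting the mean of the blank spots and multiplying by a factor per array. A ratio is luteolin over control on the log2 scale. An error written as ± is a standard error from spots within an array. For a miRNA it is that of 1 spot, from the spread of blank spots and of repeated bright control spots. For a kind of control spot it is that of the mean of its own spots. A difference combines the errors of its 2 ratios. None of these errors covers culture or array variation. The authors listed a value only above a detection limit, the blank mean plus 2 SD, and 984 miRNAs were listed on the luteolin array and 811 on the control array, with 701 on both. A stricter limit, the highest Negative Control spot, was passed by 592 miRNAs on the luteolin array and 310 on the control array. All of those 310 passed it on both arrays, so the control array alone decides this set. The 5 epithelial and luminal markers, such as miR-200c-3p and miR-375, passed the stricter limit on both arrays. Of 8 markers of other cell types, miR-451a was the 1 that did, and 5 were listed on neither array.

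MiR-149-5p had a raw signal of 70.7 units on the luteolin array and 98.3 units on the control array. After the blanks were subtracted, 4.54 units remained on the luteolin array and 17.3 on the control array. Its level was 21.0 on the luteolin array and 52.5 on the control array, a ratio of -1.32 ± 0.26. The level was 2.50-fold lower on the luteolin array. With the SD of the Negative Control 1 spots in place of that of the blanks, the standard error was 0.36. In RNA from whole cultures, fewer cells that hold the miRNA and less of it per cell cannot be told apart.

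MiR-149-3p had a raw signal of 73.2 units on the luteolin array and 95.8 units on the control array. Its level was 32.8 on the luteolin array and 44.9 on the control array, with a ratio of -0.45 ± 0.23. The 3p arm was thus lower on the luteolin array as well, by less than the 2-fold size used here. Its direction depended on the scale, as given further on.

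MiR-8078 had a raw signal of 69.8 units on the luteolin array and 94.2 units on the control array, or 3.60 units above the blanks on the luteolin array and 13.3 on the control array. Its level was 16.7 on the luteolin array and 40.2 on the control array, a ratio of -1.27 ± 0.32. The standard error was 0.45 with the SD of the Negative Control 1 spots. This ratio and that of miR-149-5p differ by less than either error.

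**Figure D1:**
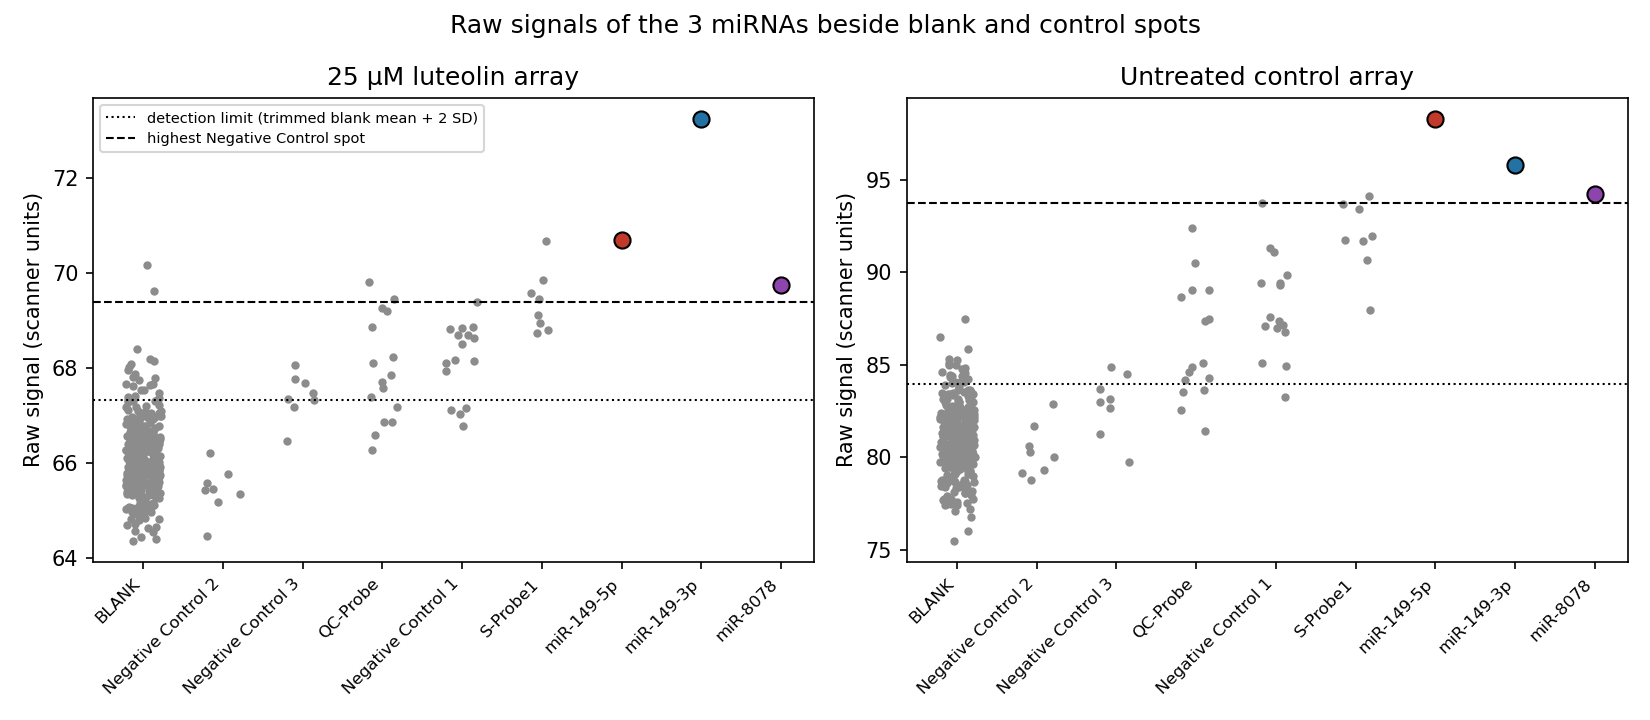
Raw signal in scanner units of miR-149-5p, miR-149-3p and miR-8078 (large points) beside single blank and control spots (small points), luteolin array left and control array right, with separate vertical scales. The dotted line is the detection limit and the dashed line the highest Negative Control spot, which all 3 miRNAs exceed on both arrays, miR-8078 by 0.372 units on the luteolin array and 0.510 on the control array.

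All 3 miRNAs were close to the limit set by the Negative Control spots. MiR-149-5p exceeded the highest of those spots by 1.31 units on the luteolin array and 4.55 on the control array, and miR-149-3p exceeded it by 3.86 units on the luteolin array and 2.04 on the control array. MiR-8078 exceeded it by 0.372 units on the luteolin array and 0.510 on the control array, and of the 310 miRNAs above the limit it had the lowest signal on the luteolin array. On that array 1 of 320 blank spots, 1 of 16 QC-Probe spots and 2 of 8 S-Probe1 spots were at or above miR-8078. On the control array no such spot was. For both arms of miR-149 the count of blank, Negative Control 1, QC-Probe and S-Probe1 spots was 0 on both arrays. Other kinds of control spot were not counted. Single No Probe spots reached 178.9 units on the luteolin array and 175.1 on the control array, above all 3 miRNAs. The highest S-Probe6 spot on the luteolin array, at 70.2 units, was above miR-8078.

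Several kinds of control spot also stood lower on the luteolin array. The sources used here do not say what the S-Probe and QC-Probe spots hold. The 16 Negative Control 1 spots averaged 68.2 ± 0.778 units on the luteolin array and 88.2 ± 2.68 units on the control array (SD over spots). Put on the authors' scale, that is a level of 9.39 on the luteolin array and 21.8 on the control array, with a ratio of -1.21 ± 0.19. The 8 S-Probe1 spots gave levels of 15.0 on the luteolin array and 33.2 on the control array, a ratio of -1.15 ± 0.14. The ratio of the QC-Probe spots was -0.92 ± 0.31. The bright Spike Control 1 and Spike Control 2 spots stood at -0.79 ± 0.039 and -0.84 ± 0.035. Across the 8 kinds of control spot whose mean passed the detection limit on both arrays, all 8 ratios were below 0, from -1.21 to -0.67. Dim control spots were not all lower on the luteolin array. Another 4 kinds passed the detection limit on the luteolin array alone, so no ratio is given for them. Negative Control 3 had a level of 5.87 on the luteolin array and 5.68 on the control array, S-Probe21 had 7.25 on the luteolin array and 5.64 on the control array, and S-Probe6 had 12.6 on the luteolin array and 8.06 on the control array. The 85 No Probe spots averaged 12.9 on the luteolin array and 7.78 on the control array, with single spots of up to 178.9 raw units on the luteolin array and 175.1 on the control array. Of the kinds past the limit on neither array, S-Probe2 had 2.06 on the luteolin array and 8.78 on the control array. In the same order, S-Probe7 had 2.68 and 5.06, and S-Probe9 had 0.553 and 2.32. The rest, blanks aside, were below the blank mean on at least 1 array and differed in both directions.

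The ratio of miR-149-5p minus that of Negative Control 1 was -0.11 ± 0.33, and for miR-8078 the same difference was -0.059 ± 0.37. Both differences are smaller than their errors. Against S-Probe1 the difference was -0.18 ± 0.30 for miR-149-5p and -0.13 ± 0.35 for miR-8078. MiR-149-3p lay on the other side, 0.76 ± 0.30 above Negative Control 1 and 0.69 ± 0.27 above S-Probe1. The part of what lowers the control spots in the ratios of the 3 miRNAs was not tested.

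**Figure D2:**
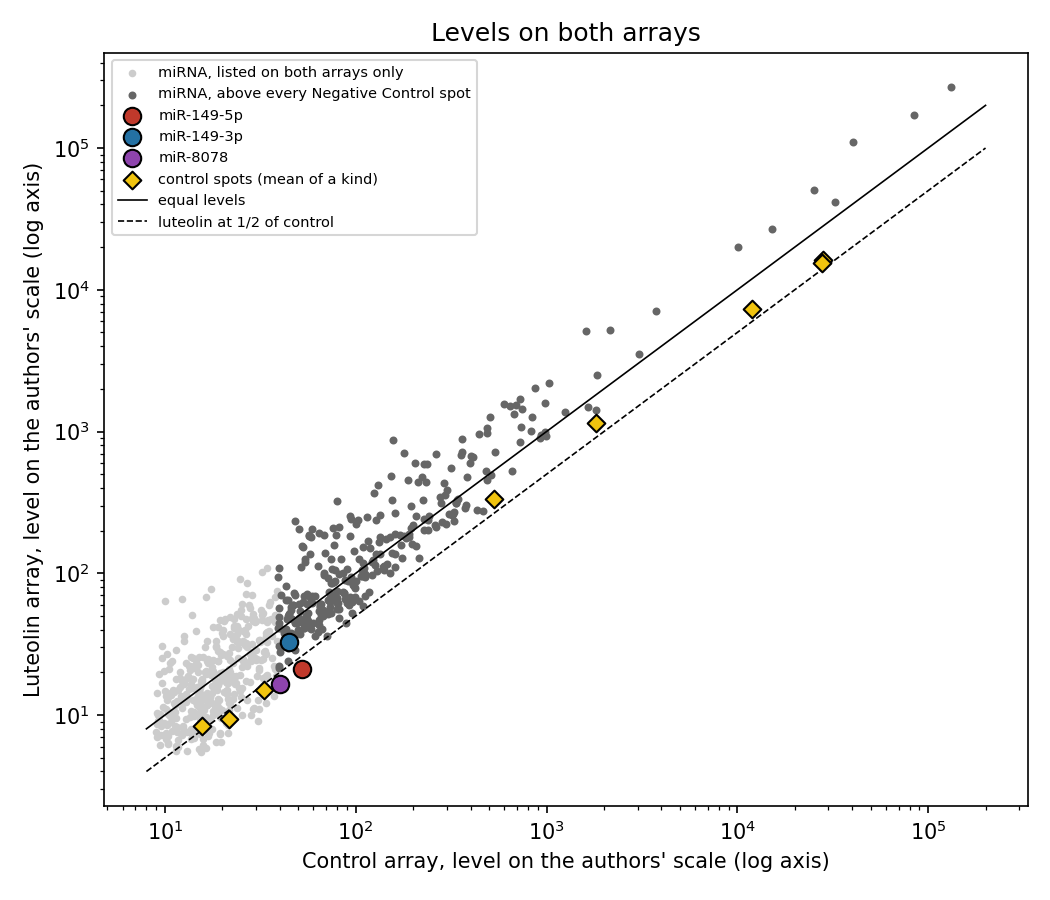
Level on the luteolin array (vertical) against level on the control array (horizontal), both on the authors' scale with log axes, for the 701 miRNAs listed on both arrays. MiR-149-5p and miR-8078 lie under the dashed line that marks a luteolin level at 1/2 of the control level, miR-149-3p lies between the lines, and the 8 kinds of control spot past the detection limit on both arrays (diamonds) all lie below the line of equal levels.

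Of the 701 miRNAs listed on both arrays, 36 (5.14%) were at least 2-fold lower on the luteolin array, a ratio of -1 or less, and miR-149-5p and miR-8078 ranked 19 and 20 from the lowest. Of the 310 above the Negative Control spots, 2 (0.645%) were, and they were miR-149-5p and miR-8078. The limit itself is lower on the luteolin array, since the highest Negative Control spot stands at a level of 14.9 on the luteolin array and 38.7 on the control array, a ratio of -1.37. A miRNA that only just passes it on both arrays, as miR-8078 does, therefore has a ratio near that value. Since the miRNAs were chosen by this contrast and the control array alone decides the 310, nothing is read from these shares. The other 34 of the 36 did not pass the Negative Control limit on both arrays. The closest to it was miR-4535, whose raw signal was 93.5 units on the control array, against 93.7 for the highest Negative Control spot, and whose ratio was -1.02 ± 0.30. Just short of the 2-fold size were miR-210-3p, a miRNA induced by hypoxia, at -0.99 ± 0.18 and miR-6868-5p at -0.97 ± 0.20. MiR-149-3p ranked 39 of the 310 from the lowest.

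The miRNAs whose pair of levels was nearest to that of miR-149-5p, by Euclidean distance of the log2 levels over the 2 arrays among the 310, were miR-744-5p, miR-451a, miR-575, miR-5096 and miR-8078. Their distances were 0.32 to 0.51. MiR-744-5p had a level of 24.0 on the luteolin array and 44.1 on the control array, with a ratio of -0.88 ± 0.26. The nearest to miR-8078 were miR-575, miR-451a, miR-149-5p, miR-744-5p and miR-6880-5p, at distances of 0.36 to 0.74. MiR-451a, a miRNA of red blood cells, had a level of 22.1 on the luteolin array and 39.8 on the control array. The lists for miR-149-5p and miR-8078 share miR-744-5p, miR-451a and miR-575, and each holds the other miRNA. Both were chosen for a low ratio of these same levels and lie close to the Negative Control limit. Their nearness is therefore a description, and no likeness between them is read from it. The nearest to miR-149-3p were miR-6816-5p, miR-6858-5p, miR-5585-3p, miR-5095 and miR-7150, with ratios of -0.57 to -0.24.

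The 2 arms of a hairpin are cut from the same precursor. Among the 2264 array miRNAs with a RefSeq sequence there were 722 pairs of such arms. Pairs with an arm outside these were not formed, and the counts and ranks below leave them out. An example is miR-21-5p at 2.46 ± 0.14 and miR-21-3p at -0.13 ± 0.65, both listed on both arrays. In 85 of the 722 pairs both arms were listed on both arrays, and in 41 of the 85 both arms lay on the same side of 0. In 7 of the 85 pairs an arm is also given by another hairpin gene, so that its signal is not from 1 precursor alone. For MIR149 both arms were below 0, and the 5p ratio minus the 3p ratio was -0.87 ± 0.35, a description since the 5p arm was chosen for its ratio. This difference between arms ranked 38 of 85 by size, where the median size was 0.72. Without the 7 pairs it ranked 35 of 78. Among the 13 pairs whose arms both passed the Negative Control limit on each array it ranked 5, the median size was 0.57, and 8 of the 13 had both arms on the same side of 0. The 3 largest arm differences of the 85 belonged to miR-29b-2-5p and miR-29b-3p (-2.53 ± 0.64), to the arms of miR-6769a (2.36 ± 0.75) and to those of miR-20b (2.27 ± 0.58). In each of these pairs at least 1 arm did not pass the Negative Control limit on both arrays, and miR-29b-3p is given by 2 hairpin genes.

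Seed relatives of miR-149-3p are shown because they would share target sites with it, with the common seed in capitals.
miR-149-3p: aGGGAGGGacgggggcugugc
miR-4728-5p: uGGGAGGGgagaggcagcaagca
miR-6785-5p: uGGGAGGGcguggaugauggug
These were the 2 relatives among the 2264 array miRNAs with a RefSeq sequence, and miR-149-5p and miR-8078 had 0. MiR-4728-5p, from an intron of the growth factor receptor gene ERBB2, had a level of 15.0 on the luteolin array and 21.1 on the control array, with a ratio of -0.49 ± 0.43. On the control array it did not pass the Negative Control spots. MiR-6785-5p had a level of 15.3 on the luteolin array and was not listed on the control array, where its raw signal was 81.3 units.

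Array miRNAs that share the longest run of bases with each of the 3 are shown with that run in capitals, since RNAs of like sequence can bind the same probe. Only the 2264 array miRNAs with a RefSeq sequence could be compared. For miR-149-3p and miR-8078, where several miRNAs tie, the brightest is shown with the other that holds the same run.
miR-149-5p: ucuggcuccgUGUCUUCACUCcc
miR-3664-5p: aacucUGUCUUCACUCaugagu
miR-149-3p: agggAGGGACGGGggcugugc
miR-6743-5p: aaggggcAGGGACGGGuggccc
miR-92b-5p: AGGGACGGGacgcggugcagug
miR-8078: ggucuAGGCCCGGugagagacuc
miR-6126: gugaAGGCCCGGcggaga
miR-4747-3p: aAGGCCCGGgcuuuccucccag
MiR-3664-5p shares 11 bases with the 3′ part of miR-149-5p and was listed on neither array, with raw signals of 65.7 units on the luteolin array and 80.5 on the control array. Those are below the blank means, 66.2 on the luteolin array and 81.0 on the control array. For miR-149-3p the longest run was 9 bases, shared by 5 miRNAs. The brightest of them, miR-6743-5p, had a ratio of -0.74 ± 0.15, and miR-92b-5p had -0.45 ± 0.22. The other 3 share other runs of the same length, with miR-4722-5p at -0.30 ± 0.30, miR-4447 at -0.25 ± 0.90 and miR-4675 at 0.12 ± 0.74. For miR-8078 it was 8 bases, shared by 10 miRNAs. Of the 10, 6 were listed on neither array. Among the other 4, miR-4747-3p had a ratio of -1.49 ± 0.40 with a level of 12.1 on the luteolin array and 34.05 on the control array, below the Negative Control limit on both. The brightest, miR-6126, had -0.33 ± 0.14, miR-2392 had -0.24 ± 0.17 and miR-4448 had -0.099 ± 0.33. Of these 4 ratios, 1 was as low as that of miR-8078.

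By base composition, miR-149-5p and miR-8078 fell among 192 miRNAs listed on both arrays with over 60 and up to 70% G and C, whose median ratio was -0.076. Of these 192, 10 were at least 2-fold lower, beside 36 (5.14%) of all 701. The 701 include miRNAs without a sequence, while only the 609 with a sequence could be grouped by composition. The 30 miRNAs with up to 40% G and C had a median of 1.34, and 0 of the 30 were at least 2-fold lower. MiR-149-3p fell among 100 with over 70 and up to 80%, whose median was -0.10. Across 609 miRNAs with a sequence, Pearson's r of the ratio with G and C content was -0.29 and Spearman's rho -0.22. These points share 2 arrays and their scaling.

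**Figure D3:**
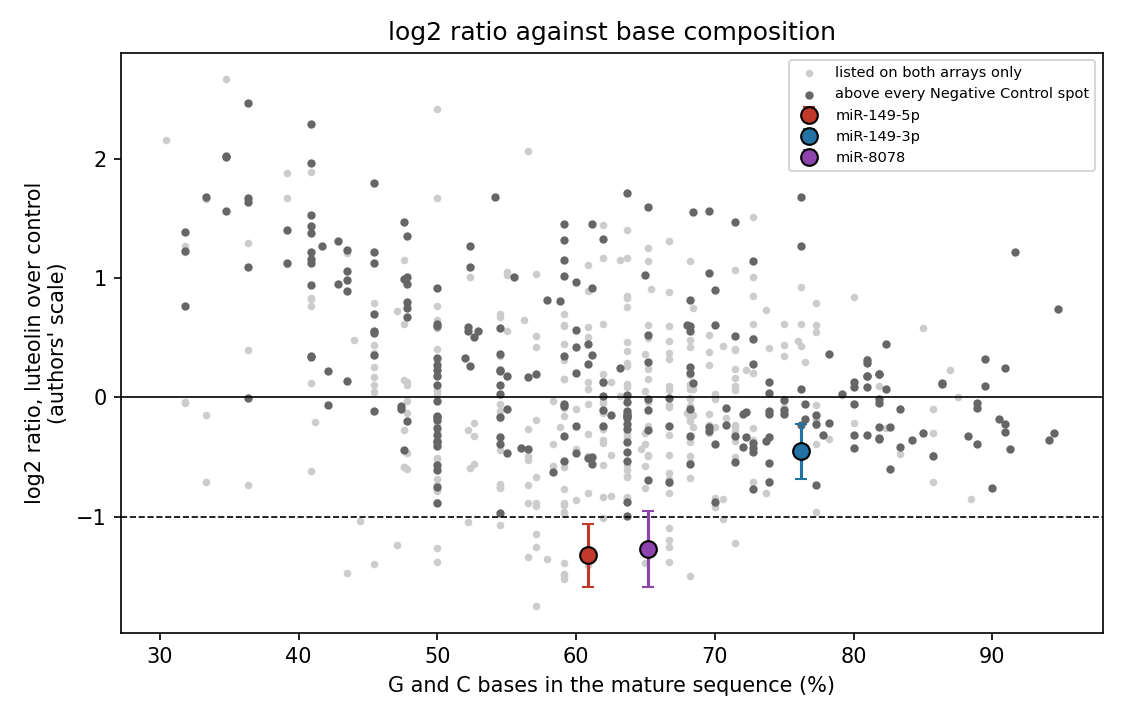
Log2 ratio of luteolin over control on the authors' scale (vertical) against the share of G and C bases in the mature sequence in percent (horizontal), for 609 miRNAs listed on both arrays, with error bars of 1 standard error from spots for miR-149-5p, miR-149-3p and miR-8078. MiR-149-5p (-1.32) and miR-8078 (-1.27) are the lowest dark points, which are miRNAs above every Negative Control spot, while pale points reach -1.75.

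With the 701 miRNAs in 10 bins of mean level, from dim to bright, miR-8078 had the lowest ratio of the 70 miRNAs of bin 5, whose median was 0.20. MiR-149-5p had the lowest of the 70 in bin 6, whose median was 0.18, and miR-149-3p ranked 7 from the lowest there. Because miR-8078 and miR-149-5p were chosen for low ratios, their ranks in these bins are a description only. MiRNAs at least 2-fold lower were mostly dim. There were 14 of 71 in bin 1, against 0 of 70 in each of bins 7, 8, 9 and 10, beside 5.14% of all 701.

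Entries miR-8052 to miR-8089, numbered next to miR-8078, were mostly not listed. Of the 37 others, 10 were listed on both arrays, 8 on 1 and 19 on neither. The 10 had a median ratio of -0.082, with 7 below and 3 above 0, beside a median of 0.00 over all 701 miRNAs. Of the 10, 0 were at least 2-fold lower, where 5.14% of the 701 were. At least 2-fold higher was 1, miR-8080, where 13.4% of the 701 were. The lowest was miR-8071 at -0.84 ± 0.46, below the Negative Control limit on both arrays. The 5 above every Negative Control spot on both arrays were miR-8059 at -0.40 ± 0.15, miR-8063 at -0.36 ± 0.21, miR-8069 at -0.11 ± 0.15, miR-8072 at -0.054 ± 0.14 and miR-8073 at 0.25 ± 0.16. MiR-8052 and miR-8080 passed that limit on the luteolin array alone. MiR-8052 had a level of 36.3 on both arrays. MiR-8080 had a level of 68.5 on the luteolin array and 16.4 on the control array, the reverse order of miR-8078. Its raw control signal, 86.4 units, lay inside the range of the Negative Control 1 spots.

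**Figure D4:**
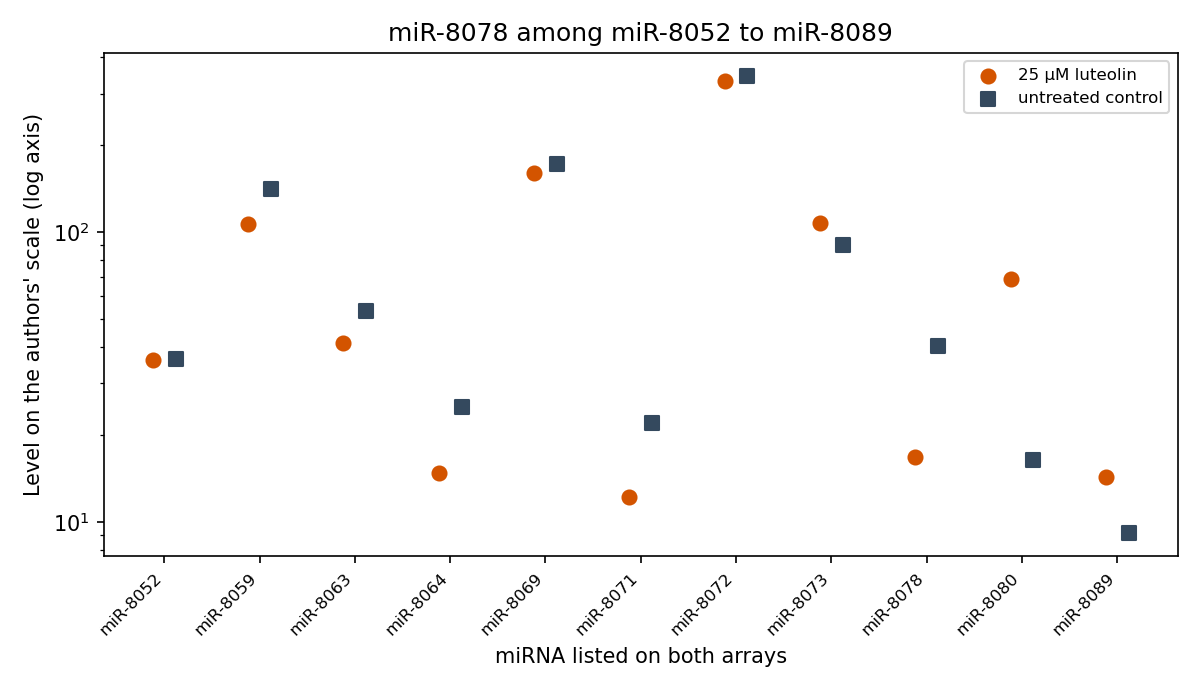
Levels on the authors' scale (log axis) of miR-8078 and of the 10 other entries from miR-8052 to miR-8089 that were listed on both arrays, luteolin as circles and untreated control as squares. MiR-8078 (16.7 on the luteolin array, 40.2 on the control array) has the lowest ratio among them, and miR-8080 (68.5 on the luteolin array, 16.4 on the control array) the highest.

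The size of all 3 ratios depended on the scale. With spots named Spike Control set equal between the arrays, miR-149-5p stood at -0.51, miR-8078 at -0.46 and miR-149-3p at 0.36, so that the 3p arm changed direction. That scaling moved the median of all 701 miRNAs to 0.81. With normexp background correction, an offset of 50 and quantile normalization, miR-149-5p stood at -0.21, miR-8078 at -0.17 and miR-149-3p at -0.11, and 0 of 701 miRNAs were at least 2-fold lower. There miR-149-5p ranked 64 and miR-8078 ranked 80 of the 310 from the lowest. The offset is added to every signal, which by design narrows the ratios of dim miRNAs. MiR-149-5p, for example, had 4.54 units over the blanks on the luteolin array and 17.3 on the control array. Nothing is therefore read from the ranks and the count of 0 under this setting. With the mean of the Negative Control 1 spots subtracted in place of the blanks, a choice made after seeing the data, miR-149-5p stood at -1.40, miR-8078 at -1.35 and miR-149-3p at 0.017. Under that setting 445 miRNAs had a ratio, with a median of 0.63. Under each of the 5 scalings by a constant, the distance from the median of all 701 was -1.32 for miR-149-5p, -1.27 for miR-8078 and -0.45 for miR-149-3p. A constant cannot change this distance, so its sameness shows no stability. In the same order the distances were -0.19, -0.15 and -0.093 with normexp at offset 50. At an offset of 16 they were -0.41, -0.34 and -0.20. They were -2.03, -1.97 and -0.61 with Negative Control 1 subtracted, there from the median of the miRNAs with a ratio.

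**Figure D5:**
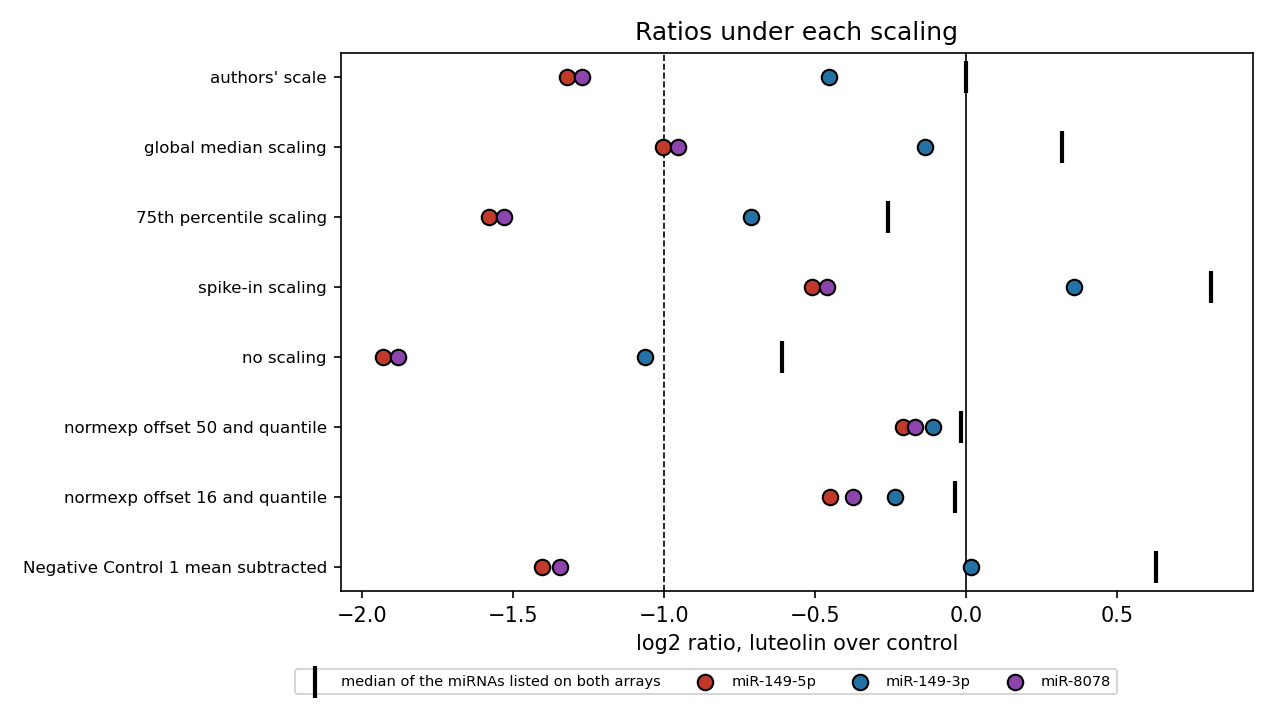
Log2 ratio of luteolin over control (horizontal) of miR-149-5p, miR-149-3p and miR-8078 under each scale (rows). A bar marks the median of the miRNAs with a ratio, 445 with the Negative Control 1 mean subtracted and 701 in the other rows. MiR-149-5p and miR-8078 are below 0 in every row, from -1.93 to -0.17, while miR-149-3p is above 0 with spike-in scaling and with the Negative Control 1 mean subtracted.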

How the data were processed

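Per the labels' protocols, RNA was extracted with ISOGEN and labelled with Cy5. Per the file headers, the deposited intensity columns hold raw, background-subtracted and globally normalized values, and for luteolin an adjusted one. From the values, the authors subtracted the blank mean after trimming 5% of spots at each end, listed signals above it by 2 SD (blank SD 0.591 on the luteolin array and 1.48 on the control array), and multiplied by 5.77 (luteolin) and 3.03 (control), which puts the median of listed miRNAs at 25. The adjusted column multiplies luteolin by 0.803. This rule matched the listing of all 2565 miRNAs on both arrays. No scanner is named in the sources used here.

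The main scale is global normalization for control and the adjusted column for luteolin. Standard errors of miRNAs combine the blank SD after trimming with the pooled coefficient of variation of 5 bright control probes, 6.23% (luteolin) and 7.34% (control). Over all 320 blank spots the SD was larger, 0.804 on the luteolin array and 1.90 on the control array, so untrimmed errors would be larger. The number of arrays limits the precision. The miRNAs and lists were chosen with earlier results of these data known. Named miRNAs are the 3 members, their seed relatives, the 5 nearest in level and those sharing the longest run of bases. Values of the last are given where listed on an array, and for miR-3664-5p. Also named are entries miR-8052 to miR-8089 above the Negative Control spots on at least 1 array. Cell type markers and the 3 largest arm differences among the pairs formed are named too. MiR-210-3p, miR-6868-5p, miR-4535, miR-8071 and the arms of miR-21 were added after their values were seen. Python 3.11.15, pandas 2.3.3, limma 3.58.1 and RNAfold 2.7.2 were used, and the ratio code was tested on simulated data.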

Additional observations from a re-analysis of the deposited data

How the results depend on the processing

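The values of miR-149-5p, miR-149-3p and miR-8078 are given in that order. They were -1.005, -0.14 and -0.95 with global median scaling, -1.58, -0.71 and -1.53 with 75th percentile scaling, -0.51, 0.36 and -0.46 with spike-in scaling, and -1.93, -1.06 and -1.88 with no scaling. With normexp they were -0.21, -0.11 and -0.17 (offset 50) and -0.45, -0.23 and -0.38 (offset 16). With the Negative Control 1 mean subtracted they were -1.40, 0.017 and -1.35. The 5p minus 3p difference was -0.87 in every scaling by a constant, -0.099 and -0.22 with normexp at offsets 50 and 16, and -1.42 with Negative Control 1 subtracted. Of 701 miRNAs, the count at least 2-fold lower was 19 (1 above the Negative Control spots) with global median scaling and 75 (12) with the 75th percentile. It was 0 (0) with spike-in scaling, 165 (51) with no scaling and 0 (0) with normexp at either offset. With Negative Control 1 subtracted it was 10 (2), but of 445 miRNAs with a ratio. No replicated test stands behind these counts of 0. The median of miR-8052 to miR-8089 was 0.23, -0.34, 0.73 and -0.69 with global median, 75th percentile, spike-in and no scaling, and 0.27 with Negative Control 1 subtracted. The seed relatives of miR-149-3p, which are miR-4728-5p alone, stood at 0.32 with spike-in scaling, -1.10 with no scaling and -0.044 with normexp at offset 50. Restricting them to miRNAs above the Negative Control spots, or subtracting Negative Control 1, left no value. For the scalings by a constant, the median of all miRNAs moves as much as each value. Normexp adds its offset to every signal, which by design narrows the ratios of dim miRNAs. How much each step of normexp moved a value was not tested. For the setting with Negative Control 1 subtracted the cause was not tested. No paired analysis was possible because each condition had 1 array. With signals of 3.60 to 7.08 units over the blanks on the luteolin array, signal over background limits all 3 ratios.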
